A study of Mus musculus with 6 samples.

Results

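The 9 genes described here encode enzymes that carry pyruvate into the citric acid cycle or turn the cycle: Pcx, Pdha1, Pdhb, Cs, Idh3a, Idh2, Ogdh, Fh1 and Mdh2. They were found by gene name among the 36706 genes measured, and all 9 had a row and passed the filter on low counts. Messenger RNA was sequenced from mouse dendritic cells of WT genotype, grown from bone marrow with 20 ng/mL GM-CSF, a cytokine that drives marrow precursors towards dendritic cells and macrophages, with fresh medium on day 3 and day 5. One group of 3 libraries came from cells given IFN-γ and 4-OI (4-octyl itaconate, a cell-permeable derivative of itaconate), and the other of 3 libraries from cells given IFN-γ without 4-OI. All cells therefore received IFN-γ, the cytokine interferon gamma, and there was no group without it. The labels gave no dose, duration, animal or batch, and none said whether the replicates were separate cultures or animals. The p-values therefore reflect only how these libraries vary, which may be technical. The titles called the cells macrophages (BMDMs) while the cell type label called them dendritic cells.

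Pyruvate, the end product of glycolysis, enters mitochondria through a carrier and then has a pair of fates. Pyruvate carboxylase makes oxaloacetate from it and so refills the cycle, whereas the pyruvate dehydrogenase complex makes acetyl-CoA, which citrate synthase joins to oxaloacetate to form citrate. Citrate is then oxidised through isocitrate, 2-oxoglutarate, succinate, fumarate and malate back to oxaloacetate. Itaconate is made from an intermediate of the cycle and is known as an inhibitor of succinate dehydrogenase, and activated macrophages of the mouse are known for a remodelled citric acid cycle.

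Total counts per library were 19656368 to 29244717 in IFN-γ+4-OI and 21710639 to 27510232 in IFN-γ, and each of the 9 genes had 240 to 4634 counts per library in IFN-γ+4-OI and 352 to 5915 in IFN-γ. On the first principal component, with 79.5% of the variance, the libraries separated by treatment. On the second, with 10.7%, IFN-γ replicate 1 lay at 32.05 against -19.1 and -16.8 for the other IFN-γ libraries, and IFN-γ+4-OI replicate 3 lay at -14.4 against 12.4 and 5.84. Of the markers of the labelled cell type, Itgax, H2-Ab1, Cd74 and Ccr7 were abundant in both groups, with Itgax at 204 to 221 CPM (a gene's counts relative to the library total, scaled between libraries by TMM factors) in IFN-γ+4-OI and 477 to 571 CPM in IFN-γ, whereas Cd209a had 2 and 5 counts summed over 3 libraries. Flt3 averaged 10.03 CPM in IFN-γ+4-OI and 16.2 CPM in IFN-γ, Zbtb46 11.4 and 15.5 CPM, Clec10a 10.6 and 29.4 CPM and Xcr1 0.709 and 0.405 CPM in the same order. The macrophage markers Adgre1 and Csf1r averaged 1334 and 844 CPM in IFN-γ+4-OI, against 875 and 677 CPM in IFN-γ. Summed over each marker list, the libraries held 4062 to 4872 CPM in IFN-γ+4-OI and 4883 to 5787 CPM in IFN-γ for dendritic cells, 2153 to 2263 and 1567 to 1701 CPM for macrophages, 5692 to 6770 and 6790 to 7671 CPM for monocytes, 1968 to 2704 and 1609 to 2345 CPM for neutrophils, and 104 to 111 and 342 to 373 CPM for mast cells and basophils, each time with IFN-γ+4-OI first. Of these markers, 5 of 8 tested for dendritic cells, 6 of 8 for monocytes, 6 of 10 for neutrophils and 7 of 7 for mast cells and basophils were lower, as were 25.4% of all genes tested. Those higher were 2 of 10 neutrophil markers, Ly6g and S100a8, and 2 of 8 macrophage markers, beside 22.7% of all genes tested. Of the macrophage markers, 1 was lower. No marker was at 0 in all libraries. The sums for dendritic cells, macrophages, monocytes, and mast cells and basophils did not overlap between the groups, and those for neutrophils did. For dendritic cells and monocytes the gap was narrow, 4872 against 4883 CPM and 6770 against 6790 CPM. The most abundant genes of these sums, Cd74 and Chil3, were not called (edgeR adjusted p = 0.305 and 0.810). The part of these cell types in the results below was not tested. In bulk RNA, fewer cells of a type and less RNA per cell cannot be told apart.

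The question was how 4-OI altered the transcripts of these enzymes in cells given IFN-γ. Transcripts of the 9 genes moved in both directions: Pcx rose 3.13-fold and Ogdh 1.73-fold with 4-OI, while Idh3a, Pdha1, Fh1 and Cs fell by log2 values of 0.72, 0.59, 0.57 and 0.33. Pdhb, Idh2 and Mdh2 did not pass. By the quasi-likelihood test of edgeR, adjusted after Benjamini-Hochberg over all 14011 genes tested and called at 0.05, 2 of 9 were higher (22.2%) and 4 were lower (44.4%). Among all genes tested, 22.7% were higher, 25.4% were lower and 48.1% were called in either direction, so the share of higher genes lay near the background. The median log2 fold change of the 9 genes was -0.18, against -0.0082 over all genes tested. For 7 of the 9 (77.8%) the groups did not overlap, which was also so for 59.5% of all genes tested.

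**Figure D1:**
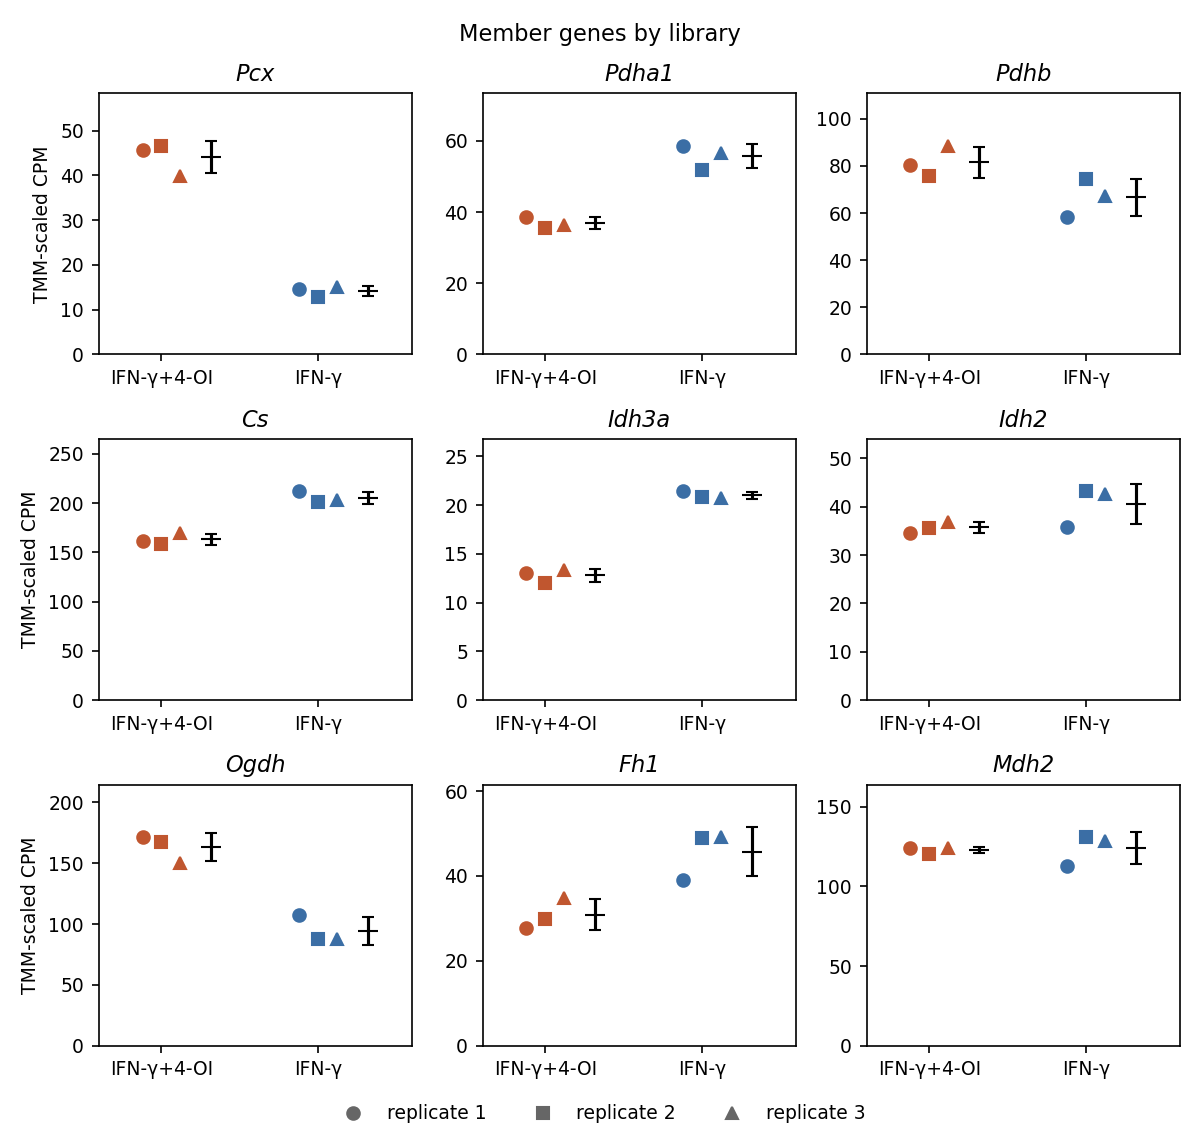
TMM-scaled CPM of each of the 9 genes (y axis, linear, from 0) in each library, with IFN-γ+4-OI left of IFN-γ; points are libraries, shaped by replicate, and the bars beside them group means with SD over 3 libraries. Pcx stood at 40.0 to 46.6 CPM in IFN-γ+4-OI and 12.9 to 14.9 CPM in IFN-γ, and only the groups of Idh2 and Mdh2 overlapped.

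Pcx encodes pyruvate carboxylase, the biotin-dependent mitochondrial enzyme that makes oxaloacetate from pyruvate, and lies on the plus strand at chr19:4560500-4671780 as the deposited tables give it. Its transcript stood at 45.7, 46.6 and 40.0 CPM in the IFN-γ+4-OI libraries, against 14.5, 12.9 and 14.9 CPM in the IFN-γ libraries. Every library with 4-OI was thus above every library without it, and the spread within each group was small beside the gap. The means were 44.1 ± 3.62 CPM in IFN-γ+4-OI and 14.1 ± 1.10 CPM in IFN-γ (SD, n = 3 each), a log2 fold change of 1.65 ± 0.10 (SE; 95% interval 1.41 to 1.88; edgeR adjusted p = 1.21e-05). A larger absolute log2 fold change was found for 7.68% of the genes tested. Pcx was the only one of the 9 that rose at least 2-fold (11.1%), as did 6.38% of all genes tested. Together with Ogdh, Idh3a and Pdha1 it was among 4 of the 9 (44.4%) that were called with a change of at least 1.5-fold in either direction, as were 31.2% of all genes tested.

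Pdha1 and Pdhb encode the alpha and beta subunits of the decarboxylating component of the pyruvate dehydrogenase complex, and their transcripts did not move together. Pdha1 carries the serines that pyruvate dehydrogenase kinases phosphorylate, and lies on the minus strand at chrX:158905215-158921426. It stood at 38.7, 35.7 and 36.4 CPM in IFN-γ+4-OI and at 58.7, 51.9 and 56.5 CPM in IFN-γ. All 3 libraries with 4-OI lay below all 3 without it. The means were 36.9 ± 1.58 CPM in IFN-γ+4-OI and 55.7 ± 3.44 CPM in IFN-γ (SD, n = 3 each), a log2 fold change of -0.59 ± 0.09 (SE; 95% interval -0.79 to -0.40; edgeR adjusted p = 7.89e-04), which is 1.51-fold lower. In the deposited annotation Pdha1 shares 20.9% of its exon bases with Map3k15 on the opposite strand, and Map3k15 had 24 to 37 counts per library in IFN-γ+4-OI and 91 to 129 in IFN-γ. The kit marks strand, but the strand setting of the counting is not given in the sources used here. How reads from the shared stretch were assigned or dropped is therefore not known. The testis paralog Pdha2 had no count in any library.

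Pdhb, on the plus strand at chr14:14296470-14303782, stood at 80.2, 75.6 and 88.6 CPM in IFN-γ+4-OI and at 58.5, 74.4 and 67.0 CPM in IFN-γ. The groups did not overlap, but the lowest library with 4-OI lay close to the highest without it. The log2 fold change was 0.29 ± 0.11 (SE; 95% interval 0.03 to 0.55), with an unadjusted edgeR p of 0.0326 and an edgeR adjusted p of 0.0643, so Pdhb was not called. Without IFN-γ replicate 2 it was called as higher, at 0.39 on the log2 scale (edgeR adjusted p = 0.0340). It was also called without both IFN-γ replicate 1 and IFN-γ+4-OI replicate 3, at a smaller 0.13 (edgeR adjusted p = 0.0280). These libraries were chosen after they were seen to stand apart. Without them calls among all genes rose from 3181 higher and 3555 lower to 4601 and 4695, so that p-value is no independent support. With libraries scaled by total counts alone Pdhb was at 0.03 (edgeR adjusted p = 0.818).

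The stretches of 250 bases upstream of the annotated starts are shown for the genes at this branch point, Pcx, Pdha1 and Pdhb, since each of the 3 behaved differently. They are RefSeq sequences of build GRCm38.p6, written 5′ to 3′ along the gene's strand, with GGGCGG (bound by SP1) and CCAAT (bound by NF-Y) in capitals, or ATTGG where CCAAT lies on the other strand. Unlike the gene coordinates above, the window coordinates are those of GRCm38.p6, where Pdhb lies on the minus strand, while the deposited tables place it on the plus strand. The Pcx window is the plus strand at chr19:4510222-4510471, the Pdha1 window the minus strand at chrX:160138431-160138680 and the Pdhb window the minus strand at chr14:8172993-8173242.
Pcx: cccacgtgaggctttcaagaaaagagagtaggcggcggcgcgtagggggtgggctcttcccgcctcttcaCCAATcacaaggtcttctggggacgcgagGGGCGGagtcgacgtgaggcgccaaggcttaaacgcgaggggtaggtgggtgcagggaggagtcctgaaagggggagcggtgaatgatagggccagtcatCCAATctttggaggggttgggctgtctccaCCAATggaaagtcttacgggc
Pdha1: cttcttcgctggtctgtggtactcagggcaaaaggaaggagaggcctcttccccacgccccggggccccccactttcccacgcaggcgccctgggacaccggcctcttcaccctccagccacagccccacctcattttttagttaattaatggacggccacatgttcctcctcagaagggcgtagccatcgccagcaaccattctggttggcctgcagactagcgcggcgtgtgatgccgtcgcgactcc
Pdhb: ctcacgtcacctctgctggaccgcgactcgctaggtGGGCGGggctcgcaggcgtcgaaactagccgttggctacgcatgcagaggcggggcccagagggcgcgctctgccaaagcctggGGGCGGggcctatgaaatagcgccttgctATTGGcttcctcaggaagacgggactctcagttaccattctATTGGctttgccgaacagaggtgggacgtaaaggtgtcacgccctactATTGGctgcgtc
The Pcx window held 1 match of GGGCGG, 151 bases before the start, and 3 of CCAAT, and the Pdhb window 2 of GGGCGG and 3 of CCAAT on the other strand. The Pdha1 window held none of the 6 motifs searched, and neither did a further Pcx window at chr19:4594069-4594318, nor did the bases that follow either of these windows match a GENCODE transcript. Windows were searched on both strands, and no match says only that these letters are absent there.

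Of the 9 genes, 8 had 1 or more such windows in the RefSeq table, 14 in all, and Idh3a was not matched. GGGCGG was found in 8 of the 14 windows, in genes other than Pdha1, and in 32.7% of the table's 32851 windows. CCAAT was found in 9 of the 14, in genes other than Pdha1 and Mdh2, and in 33.8% of the table's windows. Windows of a gene can overlap, so the 14 are not independent. The other 4 motifs were rarer. GCGCATG, part of the NRF1 site, lay in 2 overlapping windows of Ogdh, at the same site, and in 3.24% of all windows. The bases that follow those windows did not match a GENCODE transcript either. TGACNNNGC, the core of the antioxidant response element, lay in 10.2% of all windows, CCGGAAG, an ETS site, in 6.91% and TCAAGGTCA, the ERR element, in 0.387%, and none of these 3 was found in a window of the 8 genes. These matches describe letters and not binding.

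The genes around pyruvate entry gave the setting of these values. Both subunits of the mitochondrial pyruvate carrier rose: Mpc1 averaged 43.5 ± 2.98 CPM in IFN-γ+4-OI and 28.3 ± 4.84 CPM in IFN-γ (SD, n = 3 each; log2 fold change 0.62, edgeR adjusted p = 0.00543), and Mpc2 averaged 61.0 ± 11.3 and 31.7 ± 6.54 CPM in the same order (log2 fold change 0.94, edgeR adjusted p = 0.00366). Of the 3 other pyruvate dehydrogenase subunits, 2 rose, beside 22.7% of all genes tested. Pdhx, which tethers the shared dehydrogenase to the core, rose by 0.58 on the log2 scale (edgeR adjusted p = 0.00197), and Dlat, the acetyltransferase core, by 0.31 (edgeR adjusted p = 0.0265). The call of Dlat was lost without IFN-γ+4-OI replicate 2 (0.33, edgeR adjusted p = 0.0654), without IFN-γ+4-OI replicate 3 (0.24, edgeR adjusted p = 0.0715), without IFN-γ replicate 3 (0.29, edgeR adjusted p = 0.0836) and with total-count scaling (0.04, edgeR adjusted p = 0.703).

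The 7 kinases and phosphatases that switch pyruvate dehydrogenase off and on went both ways. Of these, 2 rose and 2 fell, beside 22.7% and 25.4% of all genes tested. Pdk1 and Pdk3, inhibitory kinases, fell by log2 values of 0.63 and 0.48 (edgeR adjusted p = 2.60e-04 and 0.00325). Pdk1 averaged 96.5 ± 0.666 CPM in IFN-γ+4-OI and 149.6 ± 6.33 CPM in IFN-γ. Pdp1, an activating phosphatase, rose to 26.7 ± 0.479 CPM in IFN-γ+4-OI, against 11.8 ± 0.281 CPM in IFN-γ (log2 fold change 1.18, edgeR adjusted p = 1.75e-05). Pdk4, another inhibitory kinase, was barely detected without 4-OI and rose: it had 282 counts over the 3 IFN-γ+4-OI libraries and 6 over the 3 IFN-γ libraries, a ratio scaled for depth of 52.3 with a 95% exact counting interval of 23.7 to 144 (edgeR adjusted p = 3.20e-06). That interval covers counting error only. Pdk2, Pdp2 and Pdpr did not pass. Lipt2, which transfers the octanoyl precursor of the lipoyl group that Dlat and Dlst carry, rose at a low level, 1.56 ± 0.037 CPM in IFN-γ+4-OI against 0.782 ± 0.216 CPM in IFN-γ (edgeR adjusted p = 0.0124), and Lias and Lipt1 did not pass.

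Cs encodes citrate synthase, which forms citrate at the entrance of the cycle, and lies on the plus strand at chr10:128173596-128198351. It stood at 161, 159 and 169 CPM in IFN-γ+4-OI and at 212, 201 and 203 CPM in IFN-γ. The groups were tight and did not overlap. The means were 163 ± 5.53 CPM in IFN-γ+4-OI and 205 ± 5.90 CPM in IFN-γ (SD, n = 3 each), a log2 fold change of -0.33 ± 0.07 (SE; 95% interval -0.50 to -0.16; edgeR adjusted p = 0.00699), which is 1.26-fold lower. This was the smallest change among the 6 of these genes that were called, and 55.7% of all genes tested had a larger absolute log2 fold change.

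The next oxidative step, from isocitrate to 2-oxoglutarate, is run by a NAD-dependent enzyme, whose catalytic subunit Idh3a encodes, and by the NADP-dependent Idh2. Idh3a, on the plus strand at chr9:54493795-54511946, stood at 13.02, 12.02 and 13.3 CPM in IFN-γ+4-OI and at 21.4, 20.8 and 20.7 CPM in IFN-γ. No library with 4-OI came near the range without it. The means were 12.8 ± 0.677 CPM in IFN-γ+4-OI and 21.0 ± 0.367 CPM in IFN-γ (SD, n = 3 each), a log2 fold change of -0.72 ± 0.09 (SE; 95% interval -0.92 to -0.52; edgeR adjusted p = 3.02e-04), which is 1.64-fold lower. Its partner subunits had log2 fold changes of 0.21 for Idh3b (edgeR adjusted p = 0.164) and -0.08 for Idh3g (edgeR adjusted p = 0.662), and neither was called.

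Idh2, on the minus strand at chr7:79744594-79768356, stood at 34.6, 35.7 and 36.9 CPM in IFN-γ+4-OI and at 35.8, 43.2 and 42.6 CPM in IFN-γ. The groups overlapped because IFN-γ replicate 1 lay among the libraries with 4-OI. The log2 fold change was -0.18 ± 0.10 (SE; 95% interval -0.41 to 0.04; edgeR adjusted p = 0.160), so a decrease of up to the lower end of that interval could not be told from none. Without IFN-γ replicate 1 it was -0.27 and passed (edgeR adjusted p = 0.00744). Leaving out both IFN-γ replicate 1 and IFN-γ+4-OI replicate 3 gave -0.29 (edgeR adjusted p = 8.71e-05). These libraries were chosen after they were seen to stand apart. Without them calls among all genes rose from 3181 higher and 3555 lower to 4601 and 4695, so that p-value is no independent support. With total-count scaling Idh2 was at -0.44 (edgeR adjusted p = 0.00521), a scaling that moved the median of all genes tested to -0.27. An uncharacterised gene on the opposite strand shares 15.4% of its exon bases and had no count in any library.

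Ogdh encodes the decarboxylating subunit of the 2-oxoglutarate dehydrogenase complex, which makes succinyl-CoA, and was the other gene that rose. On the plus strand at chr11:6241597-6309094, it stood at 171, 168 and 149.8 CPM in IFN-γ+4-OI and at 108, 87.3 and 88.0 CPM in IFN-γ. The library lowest with 4-OI, replicate 3, and the library highest without it, replicate 1, are those that stood apart on the second principal component, and the groups still did not overlap. The means were 163 ± 11.5 CPM in IFN-γ+4-OI and 94.3 ± 11.6 CPM in IFN-γ (SD, n = 3 each), a log2 fold change of 0.79 ± 0.11 (SE; 95% interval 0.54 to 1.04; edgeR adjusted p = 6.23e-04). Without these 2 libraries it was 0.95. Gm46270 on the opposite strand shares 6.34% of its exon bases and had 5 to 20 counts per library. Dlst, the succinyltransferase core of the same complex, was not called, at -0.18 on the log2 scale (edgeR adjusted p = 0.0662).

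Fh1 encodes fumarate hydratase, which makes malate from fumarate, and lies on the minus strand at chr1:175428944-175453201. It stood at 27.8, 29.8 and 34.9 CPM in IFN-γ+4-OI and at 39.1, 48.8 and 49.2 CPM in IFN-γ. The groups did not overlap, with IFN-γ+4-OI replicate 3 and IFN-γ replicate 1 nearest to each other. The means were 30.8 ± 3.64 CPM in IFN-γ+4-OI and 45.7 ± 5.70 CPM in IFN-γ (SD, n = 3 each), a log2 fold change of -0.57 ± 0.13 (SE; 95% interval -0.86 to -0.28; edgeR adjusted p = 0.00707), which is 1.48-fold lower.

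Mdh2 encodes mitochondrial malate dehydrogenase, which closes the cycle at oxaloacetate, and lies on the plus strand at chr5:135807503-135819240. It stood at 124, 120.4 and 124 CPM in IFN-γ+4-OI and at 113, 131 and 129 CPM in IFN-γ. The IFN-γ libraries lay on both sides of those with 4-OI. The log2 fold change was -0.02 ± 0.08 (SE; 95% interval -0.21 to 0.18; edgeR adjusted p = 0.887), and 97.5% of the genes tested had a larger absolute one. With total-count scaling it was -0.27 (edgeR adjusted p = 0.0273), which is the shift that scaling gave the median gene.

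Among all genes tested 22.7% rose and 25.4% fell, whereas of 11 other enzymes and subunits of the cycle none rose and 1 fell. That was Suclg2, a subunit of succinyl-CoA synthetase, with 8.74 ± 0.945 CPM in IFN-γ+4-OI and 11.5 ± 0.962 CPM in IFN-γ (SD, n = 3 each; log2 fold change -0.40, edgeR adjusted p = 0.0229). Its call was lost without IFN-γ+4-OI replicate 2 (-0.39, edgeR adjusted p = 0.0795), without IFN-γ+4-OI replicate 3 (-0.32, edgeR adjusted p = 0.0791) or IFN-γ replicate 2 (-0.32, edgeR adjusted p = 0.0870). The 4 succinate dehydrogenase subunits Sdha, Sdhb, Sdhc and Sdhd were not called. Sdhc lay just past the threshold, at 0.38 on the log2 scale (95% interval 0.06 to 0.69, edgeR adjusted p = 0.0512). Sdha, Sdhb and Sdhd had edgeR adjusted p = 0.960, 0.754 and 0.744.

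Outside the cycle, enzymes and carriers that link it to the cytosol included larger changes. Me1, the cytosolic malic enzyme, which makes pyruvate from malate, rose to 27.2 ± 3.41 CPM in IFN-γ+4-OI, against 2.84 ± 0.499 CPM in IFN-γ (SD, n = 3 each; log2 fold change 3.27, edgeR adjusted p = 3.87e-06), while the mitochondrial Me2 fell by 0.81 (edgeR adjusted p = 1.95e-04). The mitochondrial Me3 had no count in any library. Idh1, the cytosolic counterpart of Idh2, rose to 221 ± 10.99 CPM in IFN-γ+4-OI, against 123 ± 9.43 CPM in IFN-γ (log2 fold change 0.84, edgeR adjusted p = 1.52e-04). Acly, which splits citrate in the cytosol, stood at -0.36 on the log2 scale (edgeR adjusted p = 0.0235), and that call was lost without each IFN-γ+4-OI library in turn (-0.37 to -0.32, edgeR adjusted p = 0.0683, 0.0685 and 0.0829).

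Of 5 mitochondrial carriers of cycle intermediates and aspartate, none rose and 3 fell, beside 22.7% and 25.4% of all genes tested. Slc25a10, the dicarboxylate carrier, fell by 0.72 on the log2 scale (edgeR adjusted p = 2.90e-04). Slc25a13 and Slc25a12, the aspartate-glutamate carriers, had log2 fold changes of -1.14 (edgeR adjusted p = 9.41e-04) and -0.33 (edgeR adjusted p = 0.00957), and the call of Slc25a12 was lost without IFN-γ+4-OI replicate 2 (-0.29, edgeR adjusted p = 0.0596). Got1, the cytosolic aspartate aminotransferase, was the only one of 4 genes of glutamine and glutamate entry that was called, at 49.3 ± 3.16 CPM in IFN-γ+4-OI and 91.5 ± 3.18 CPM in IFN-γ (SD, n = 3 each; log2 fold change -0.89, edgeR adjusted p = 8.33e-05). Over these 43 other pathway genes, 42 were tested, of which 9 were higher and 9 were lower with a median of -0.02. The share called was 42.9%, against 48.1% of all genes tested. With total-count scaling 17 of the 42 were lower, but lower genes among all 14011 tested also went from 3555 to 5452. Without both IFN-γ replicate 1 and IFN-γ+4-OI replicate 3, 18 were lower, beside 4695 of all 14086 genes tested in that setting.

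**Figure D2:**
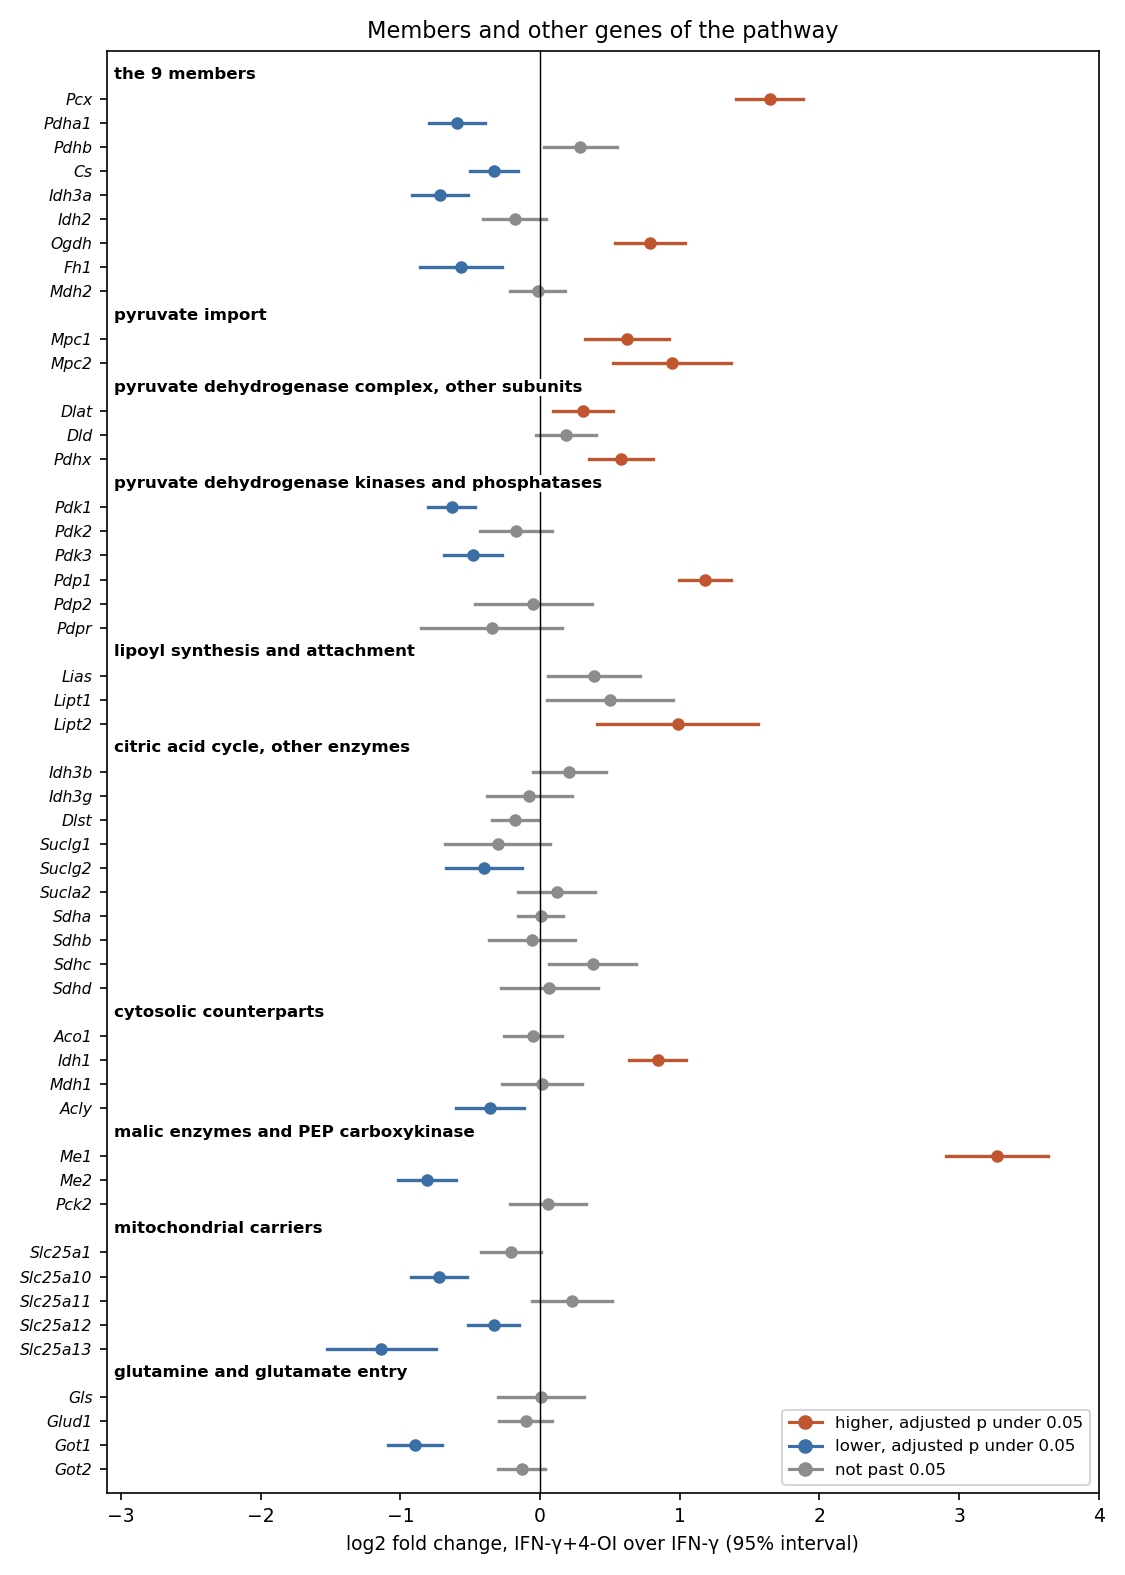
Log2 fold changes of IFN-γ+4-OI over IFN-γ (x axis) for the 9 genes and other pathway genes, grouped by role down the page; points are estimates of the edgeR fit and bars 95% intervals, in orange for genes called higher, blue for genes called lower and grey for genes not past an adjusted p of 0.05. Pcx at 1.65 and Me1 at 3.27 lie farthest to the right; Pdk4, off the scale with 6 counts in IFN-γ, and Me3, without counts, are not drawn.

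A ratio of 2 genes within a library does not depend on how libraries were scaled to each other. For 6 pairs, such ratios of FPKM (counts scaled by gene length and by the total count of the library) were compared by exact two-sided permutation tests over the libraries, which with 3 against 3 cannot give a p under 0.10. The groups did not overlap in any of the 6 (exact permutation p = 0.10 each, and 0.10 after Benjamini-Hochberg adjustment over the 6). Every pair included a gene that was called, and ratios over all gene pairs were not computed, so this count has no background. For single genes, the groups did not overlap in 59.5% of all genes tested. The ratio of Pcx to Pdha1, at the branch of pyruvate, was 0.784, 0.867 and 0.727 in IFN-γ+4-OI and 0.164, 0.164 and 0.175 in IFN-γ, a log2 difference of 2.24 or 4.71-fold. Within the dehydrogenase, the ratio of Pdha1 to Pdhb was 0.274, 0.268 and 0.234 in IFN-γ+4-OI and 0.570, 0.396 and 0.479 in IFN-γ. That is a log2 difference of -0.89, with the IFN-γ libraries spread more widely.

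Along the cycle, the ratio of Ogdh to Idh3a was 4.13, 4.38 and 3.53 in IFN-γ+4-OI and 1.58, 1.31 and 1.33 in IFN-γ, a log2 difference of 1.51 or 2.85-fold. Ogdh and Idh3a encode subunits of the enzymes on either side of 2-oxoglutarate, and these 2 transcripts moved apart, while Idh2, Idh3b, Idh3g and Dlst were not called. The ratio of Idh3a to Idh2 was 0.869, 0.779 and 0.833 in IFN-γ+4-OI and 1.38, 1.12 and 1.12 in IFN-γ (log2 difference -0.54). The height of a ratio depends on the deposited gene lengths, whereas the difference between groups does not. With the lengths of principal GENCODE transcripts, Idh3a stood at 9.55 FPKM and Idh2 at 25.3 FPKM in IFN-γ. The ratio of Fh1 to Mdh2 was 0.177, 0.194 and 0.221 in IFN-γ+4-OI and 0.273, 0.293 and 0.300 in IFN-γ (log2 difference -0.55). Cs to Mdh2 differed least, at 0.560, 0.568 and 0.589 in IFN-γ+4-OI and 0.809, 0.660 and 0.679 in IFN-γ (log2 difference -0.32).

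**Figure D3:**
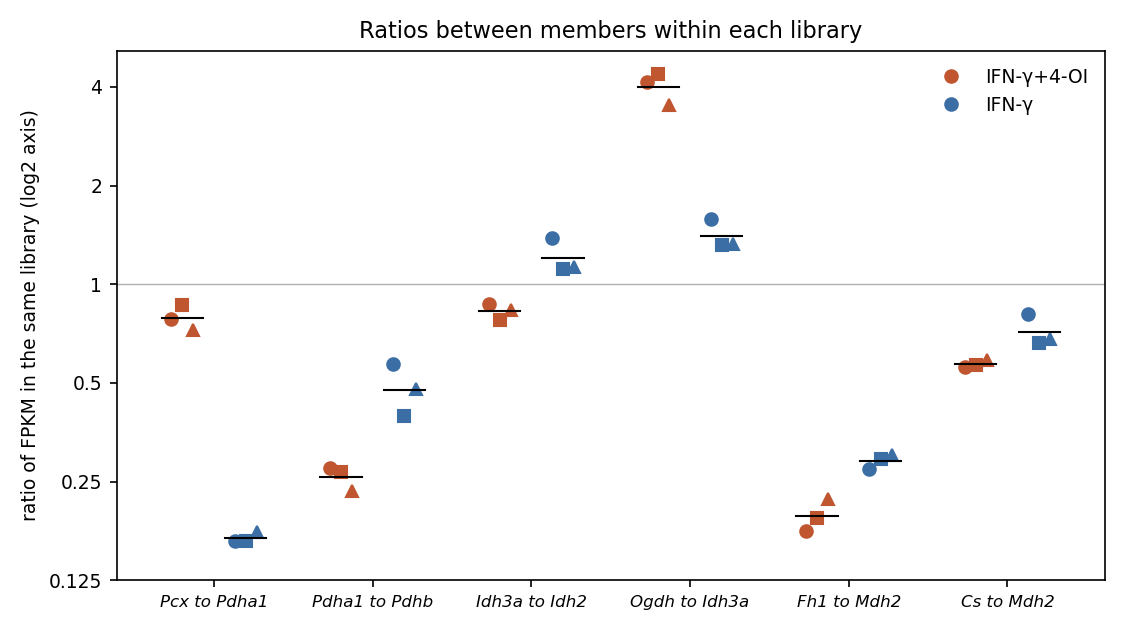
Ratio of the FPKM of 2 genes in the same library (y axis, log scale) for the 6 pairs, with IFN-γ+4-OI left of IFN-γ; points are libraries and horizontal lines group means on the log scale. Pcx to Pdha1 lies between 0.727 and 0.867 in IFN-γ+4-OI and between 0.164 and 0.175 in IFN-γ, and no pair overlaps between groups. Every pair includes a gene that was called, and the height of a ratio depends on the deposited gene lengths.

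Ratios to partner subunits, chosen after the values were seen and given without a test, placed Idh3a, Ogdh and Pdha1 against some of their partners. Idh3a to Idh3b was 0.0810 to 0.0841 in IFN-γ+4-OI and 0.142 to 0.191 in IFN-γ, and Idh3a to Idh3g was 0.126 to 0.151 in IFN-γ+4-OI and 0.186 to 0.258 in IFN-γ. Ogdh to Dlst was 0.438 to 0.515 in IFN-γ+4-OI and 0.223 to 0.284 in IFN-γ. Pdha1 to Dlat was 0.956 to 1.21 in IFN-γ+4-OI and 1.81 to 2.09 in IFN-γ. In each case the groups were apart. These ratios restate the calls above, since Idh3a, Ogdh and Pdha1 were called, while their partners here were not called or, for Dlat, rose. Ratios of Pdha1 to the shared dehydrogenase and to Pdhx were not computed.

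Levels of different genes are compared here per gene length, as FPKM scaled by total counts, with no test. Mdh2 was the most abundant of the 9, at 87.4 ± 3.87 FPKM in IFN-γ+4-OI and 106 ± 5.93 FPKM in IFN-γ (SD, n = 3 each), followed by Cs at 50.0 ± 0.9498 and 75.4 ± 4.10 FPKM and Pdhb at 45.8 ± 1.54 and 44.8 ± 4.31 FPKM, each with IFN-γ+4-OI first. Below these 3 the order differed between the groups. In IFN-γ+4-OI it went on with Ogdh (19.5 ± 2.31 FPKM), Fh1 (17.2 ± 1.20), Pdha1 (11.8 ± 0.860), Pcx (9.39 ± 1.23), Idh2 (5.87 ± 0.176) and Idh3a (4.85 ± 0.196), and of these neighbours Ogdh and Fh1 overlapped between libraries. In IFN-γ it went on with Fh1 (30.6 ± 3.14 FPKM), Pdha1 (21.4 ± 1.82), Ogdh (13.5 ± 2.004), Idh3a (9.55 ± 0.402), Idh2 (7.96 ± 0.619) and Pcx (3.59 ± 0.335), and no neighbours overlapped. With these lengths Pcx was the least abundant of the 9 in IFN-γ and stood above Idh2 and Idh3a in IFN-γ+4-OI.

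The FPKM rest on the deposited gene lengths, which for Idh2 (5556 bases) and Ogdh (7669 bases) were longer than the principal GENCODE transcript (1745 and 4127 bases) and for Fh1 shorter (1632 against 2636 bases). With the GENCODE lengths, Idh2 stood at 18.7 FPKM in IFN-γ+4-OI and 25.3 FPKM in IFN-γ, rank 5 and rank 4 of the 9, and Fh1 stood at rank 7 in both groups. Mdh2, Cs and Pdhb kept the first 3 ranks under both lengths, and Pcx was at rank 8 in IFN-γ+4-OI, below Idh2 and above Idh3a, and at rank 9 in IFN-γ. As shares of the summed FPKM of the 9 genes, Pcx had 3.72% in IFN-γ+4-OI and 1.15% in IFN-γ, Ogdh 7.72% and 4.32%, Pdha1 4.69% and 6.84%, and Mdh2 34.7% and 33.8%, in that order of groups. The summed FPKM behind these shares was 244 to 258 in IFN-γ+4-OI and 306 to 316 in IFN-γ. The direction of such a sum depends on the unit and scaling: the summed TMM-scaled CPM of the 9 genes was 682 to 696 in IFN-γ+4-OI and 660.3 to 671 in IFN-γ.

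**Figure D4:**
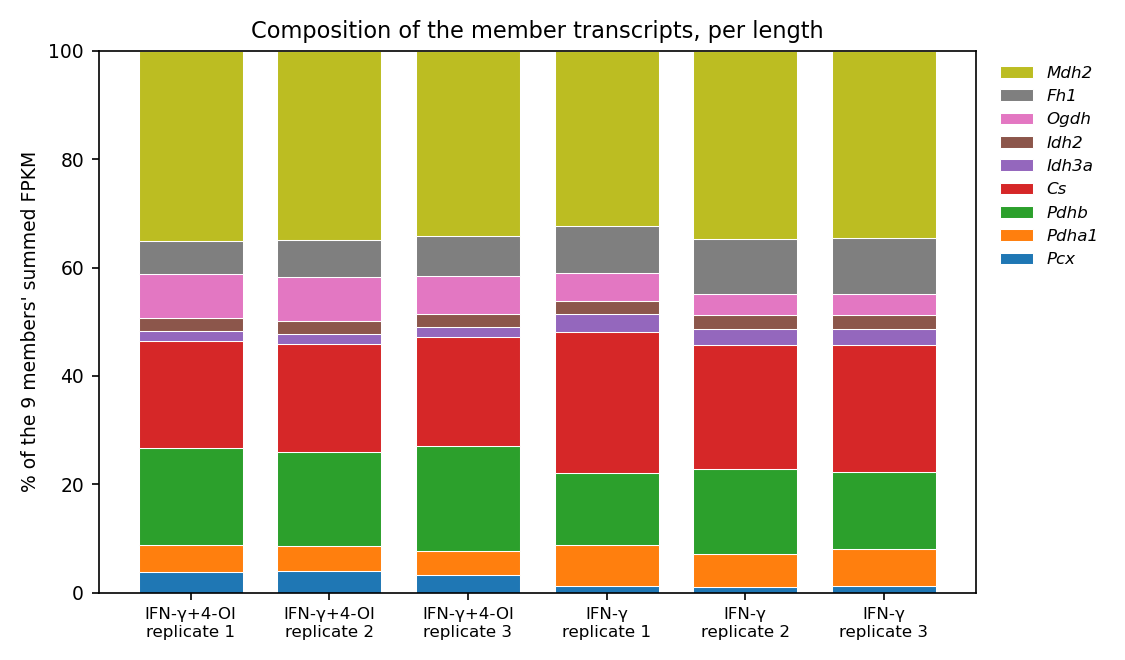
Share of the summed FPKM of the 9 genes (y axis, percent, from 0) taken by each gene, as 1 stacked bar per library, with the 3 IFN-γ+4-OI libraries left of the 3 IFN-γ libraries. Mdh2 at the top holds on average 34.7% in IFN-γ+4-OI and 33.8% in IFN-γ, and Pcx at the bottom 3.72% and 1.15%.

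The genes whose log2 CPM followed that of Pcx most closely over the 6 libraries were Tmco4 (Pearson r = 0.99993), Spatc1 (0.9997), Fam71f2 (0.9991), Slc25a16 (0.9991) and Zfand2a (0.9991). Their log2 fold changes with 4-OI were all positive, from 0.57 for Slc25a16 to 2.91 for Fam71f2. These values describe 6 libraries in 2 groups, where any gene that separates the groups correlates with Pcx, positively if higher with 4-OI and negatively if lower. An r above 0.95 was found for 1255 of the 12211 genes compared, and strongly negative values were not counted.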

How the data were processed

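The authors deposited 1 table per library with whole-number counts per gene, TPM and FPKM, per the file headers, over 36706 genes. HISAT2 and mm10 are named in the submitters' processing notes, and a stranded mRNA kit in the labels' protocols. Which program counted the reads, with which strand setting and annotation, is not given in the sources used here. The deposited counts entered the test unchanged. Deposited TPM and FPKM were the same, to a relative 1e-06, as those recomputed from counts and gene lengths (100.0% of values), and FPKM served only for levels and ratios within a library. Gene coordinates are those of the deposited tables: none of the 9 genes shared a start or end with RefSeq's GRCm38, so their assembly may differ from mm10.

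Genes were kept by edgeR 4.0.16 filterByExpr (minimum count 10), scaled by TMM and compared by the robust quasi-likelihood test (R 4.3.3) with Benjamini-Hochberg adjustment at 0.05 over 14011 genes, after a check on simulated data. CPM are means ± SD over 3 libraries. At the depths of these libraries 3 counts correspond to 0.103 to 0.153 CPM, for counting error only. No 2 replicates agreed within sampling noise (lowest chi-square per gene 4.31). Levels between genes used FPKM, and ratios exact permutation tests (SciPy 1.17.1). Promoters came from the RefSeq table of GRCm38.p6.

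The members, lists and tests were chosen with earlier results of these data known. Named were all 9 genes, every other pathway gene past 0.05 and, beside them, some that did not pass. The 5 genes most correlated with Pcx were also named, leaving out symbols starting with Gm or LOC or ending in Rik. Marker and overlapping genes were named beside the results they touch. The result of 1 listed pathway gene is not reported here, although list counts include it. Alternatives were RLE, upper quartile and total-count scaling, no filter, at least 1 CPM in 3 libraries, limma-voom (limma 3.58.1), DESeq2 1.42.0, the replicate number as a block, leaving out each library, and for counts of genes an adjusted p of 0.01. Leaving out both IFN-γ replicate 1 and IFN-γ+4-OI replicate 3, and GENCODE transcript lengths, were added after seeing the data.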

Additional observations from a re-analysis of the deposited data

How the results depend on the processing

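Pcx, Ogdh, Pdha1, Cs, Idh3a and Fh1 kept their direction and call under all 15 alternatives tried for single genes. Over these, log2 fold changes ran from 1.39 to 1.74 for Pcx, 0.53 to 0.95 for Ogdh, -0.85 to -0.55 for Pdha1, -0.59 to -0.31 for Cs, -0.98 to -0.67 for Idh3a and -0.83 to -0.49 for Fh1. Of the 9 genes, 2 to 3 were higher and 4 to 6 were lower. Mdh2, not called, ran from -0.089 to 0.034 where libraries were left out and changed sign without IFN-γ+4-OI replicate 2 (0.0026), IFN-γ replicate 2 (0.034) and IFN-γ replicate 3 (0.023). With total-count scaling 17 other pathway genes were lower, not 9, and 1719 genes of all tested were higher and 5452 lower, so that higher genes made up 24.0% of calls against 47.2% with TMM. Without both IFN-γ replicate 1 and IFN-γ+4-OI replicate 3, 18 other pathway genes were lower. In that setting 4601 genes of all tested were higher and 4695 lower. At an adjusted p of 0.01, 2079 of all genes were higher. Leaving out 1 library gave 8 to 11 higher and 6 to 13 lower other pathway genes, and 2460 to 3791 higher and 2815 to 4044 lower genes of all tested. The 6 ratios between genes kept their direction without each library in turn and without both IFN-γ replicate 1 and IFN-γ+4-OI replicate 3; the replicate block cannot change their differences. Replicate numbers did not pair the libraries: deviations from group means correlated at 0.26, -0.10 and 0.19 between same-numbered libraries, and not every library correlated best with its own number. With the replicate block 3 of the 9 genes were higher and 4 lower, since Pdhb passed (0.29, edgeR adjusted p = 0.0296), and 3588 of all genes were higher and 3925 lower.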

Other observations

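Genes of mitochondrial content and biogenesis, which carry no step of the cycle, moved both ways beside the enzymes. Of 14 tested, 3 were higher with 4-OI and 3 were lower, with a median log2 fold change of -0.03, so 6 of 14 were called, beside 48.1% of all genes tested. Vdac3, a channel of the outer membrane, rose by 0.68 on the log2 scale (edgeR adjusted p = 9.45e-04), Tomm20, a receptor for imported proteins, by 0.44 (edgeR adjusted p = 0.00473), and Tfam, which packages mitochondrial DNA, by 0.27 (edgeR adjusted p = 0.0412). Ppargc1b, a coactivator of mitochondrial biogenesis, fell by 1.36 (edgeR adjusted p = 0.00523), its relative Ppargc1a by 1.23 (edgeR adjusted p = 0.0488), and Polg, the mitochondrial DNA polymerase, by 0.40 (edgeR adjusted p = 0.0491). Ppargc1b and Ppargc1a were low, with 68 and 41 counts over the 3 IFN-γ+4-OI libraries and 196 and 109 over the 3 IFN-γ libraries. The calls in this list were not tried under the alternatives. The other 8, Vdac1, Vdac2, Tomm40, Timm23, Nrf1, Gabpa, Esrra and Polrmt, were not called. The summed level of the list was 964 to 1055 CPM in IFN-γ+4-OI and 856 to 973 CPM in IFN-γ, so the groups overlapped.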
